A study of Mus musculus with 31 samples.

Results

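The genes described here were detected in both dorsal and ventral diencephalon and were selected on their level in every library of both: 12697 of the 34865 gene identifiers in the deposited bulk table reached 0.5 CPM (counts per 1000000 counts) in each of the 6 libraries. The libraries came from wild-type mice at embryonic day E10.5, with 3 from dorsal (dorsal 1 to 3) and 3 from ventral diencephalon (ventral 1 to 3), and the labels name the source as neural progenitor cells. They give no strain, no sex and no statement on pooled embryos, and do not say whether each library was made from embryos of its own. The p-values therefore measure the spread between libraries, which may be technical. The series also holds medial cortex libraries at embryonic day E11.5, of which the 12 labelled Emx1-cre(+/-)::MDMD::Axin2(+/+) are used once. The labels' protocol gives the mice of those libraries as Emx1-CreERT2::MADM-11::Axin2LacZ/+. The rule used the level in each library, so detection in both regions is not itself a result, and the differences between regions within these genes are what was tested.

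The diencephalon is the hindmost part of the forebrain. Its dorsal part gives rise to the thalamus, pretectum and epithalamus, and its ventral part to most of the hypothalamus. Progenitors at the ventricle divide, then leave the cell cycle and become neurons, and the 2 regions differ in the transcription factors that set neuron type. Genes expressed in both include the machinery of every cell, such as ribosomes and proteasomes, as well as regional factors present at a low level on one side.

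At the threshold, Ttc38, Cpne9 and D17H6S53E fell just short, with lowest values of 0.4984, 0.4989 and 0.499 CPM, and Oprk1, Lrrc2 and Xk just passed, at 0.5013, 0.502 and 0.5026 CPM. Of the 12697 genes, 12349 were protein coding and 314 were annotated as pseudogenes of some type in GENCODE M21. They held between 97.1% and 99.3% of each library's counts. Ventral library 3 alone kept 777 genes out of the set, against 73 to 119 for any other single library. The total counts ran from 17604166 to 20838002. Within each region libraries 1 and 2 were closest to each other, with correlations of log2 CPM across genes of 0.990 in dorsal and 0.981 in ventral, and library 3 stood further off, at 0.951 to 0.955 in dorsal and 0.867 to 0.879 in ventral. No 2 libraries differed by as little as counting noise.

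The labelled regions were set beside lists of regional genes. These lists were written with earlier results of these data known, so they give no independent check of the labels. Of 21 tested thalamic, pretectal and epithalamic factors, 16 passed as dorsal and 4 as ventral, and of 27 tested hypothalamic factors, 17 passed as ventral and 3 as dorsal. Of 23 tested cortical factors, 17 were also higher in dorsal, so the dorsal libraries carried transcripts of the telencephalon beside those of the thalamus. The ventral libraries carried transcripts of adult intestine, exocrine pancreas and plasma cells, described below with their values. Fewer cells of a type and less RNA per cell cannot be told apart in such bulk samples.

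Most of the shared genes differed little between the regions. Of the 12657 with a mean of at least 1 CPM, which were tested, 8239 (65.1%) lay within 1.5-fold, and the median log2 fold change of dorsal over ventral was 0.03. By edgeR's quasi-likelihood test with a Benjamini-Hochberg adjusted p under 0.05, 957 (7.56%) were higher in dorsal and 770 (6.08%) were higher in ventral. Over all 14701 genes tested, 7.14% were called higher in dorsal, 9.54% were called higher in ventral and 16.7% were called in either direction. The share of these genes called dorsal was thus near that of all genes and the share called ventral was lower. Among the 2044 tested genes outside the set 35.5% were called. Each of these had a library under 0.5 CPM and reached a mean of 1 CPM only through higher values in other libraries. Their share is therefore not comparable with that of the set.

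The ventral differences included more large ones. More than 2-fold differences numbered 698 in dorsal and 562 in ventral, while differences of more than 8-fold numbered 61 and 104 and those of more than 16-fold 22 and 49. Of the ventral ones, 16 of the 104 and 15 of the 49 were on the intestine, pancreas and plasma cell lists described below. Among the other 88 ventral ones of more than 8-fold, 32 had the library order of those list genes, as defined below. The 3 libraries of one region lay entirely above those of the other for 4591 of the tested genes (36.3%), against 39% of all genes tested. These included all 957 genes called higher in dorsal and 769 of the 770 called higher in ventral. Separation of the regions in a called gene, given below for many, is therefore no evidence beyond the call. The counts rest on the close library pairs: leaving out dorsal 1, dorsal 2, ventral 1 and ventral 2 in turn, the dorsal count was 450, 513, 477 and 526 and the ventral count 373, 408, 427 and 457. Without ventral library 3 the dorsal count was 1510. Counts of the gene lists moved too when a library was left out, some in another way than these totals, and such values are given below beside them.

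**Figure D1:**
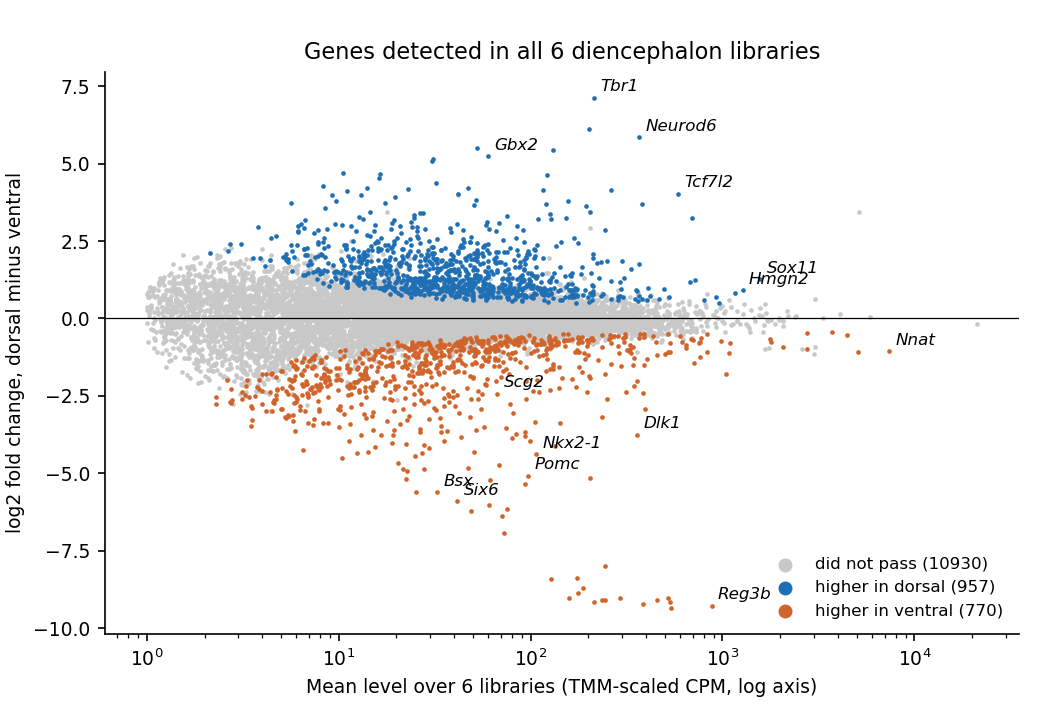
Each point is one of the 12657 tested genes, with its mean level over the 6 libraries (TMM-scaled CPM, log axis) against its log2 fold change of dorsal over ventral. Blue points passed as higher in dorsal (957) and orange points as higher in ventral (770), and a separate group of ventral-high genes sits near a log2 fold change of -9.

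Regional transcription factors of the cortex and thalamus were among the largest dorsal differences. Tbr1, a T-box factor of early cortical neurons, stood at 474, 455 and 341 CPM in dorsal libraries 1 to 3 and at 2.86, 4.65 and 1.502 CPM in ventral libraries 1 to 3 (log2 fold change 7.13, SE 0.43, adjusted p = 8.51e-05). Every dorsal library was far above every ventral one.

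Basic helix-loop-helix (bHLH) factors of neuronal differentiation had large dorsal differences too. Neurod6, found in differentiating excitatory neurons of the cortex, stood at 818, 759.8 and 586 CPM in dorsal and 12.8, 14.0 and 10.7 CPM in ventral libraries, a log2 fold change of 5.85. For Neurod2, a relative of it, the values were 243, 223 and 306 CPM and 6.31, 5.79 and 5.67 CPM, a log2 fold change of 5.44. Eomes, a T-box factor of intermediate progenitors, measured 103, 94.8 and 112 CPM in dorsal and 2.91, 2.76 and 1.11 CPM in ventral libraries, a log2 fold change of 5.51. No ventral library of these 3 genes came near a dorsal one, but the rule that named them required regions without overlap. Reln, the secreted protein of Cajal-Retzius cells, was at 235, 246 and 178 CPM against 11.6, 11.1 and 14.7 CPM, a log2 fold change of 4.14. In the list of Cajal-Retzius cell genes, 7 of 11 tested passed as dorsal and 1 as ventral, and the dorsal count was 4 when dorsal 1, dorsal 2 or ventral 1 was left out.

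Thalamic factors were as clearly separated. Gbx2, a homeobox gene required for thalamic nuclei, stood at 116, 122.7 and 110.2 CPM in dorsal and 2.52, 3.30 and 3.45 CPM in ventral libraries (log2 fold change 5.23, SE 0.22, adjusted p = 3.08e-05). Tcf7l2, a transcriptional partner of beta-catenin that is abundant in the thalamus, was at 1204, 1125 and 986 CPM against 70.8, 72.6 and 59.2 CPM, a log2 fold change of 4.03. Lhx9, a LIM homeobox gene of the thalamus, measured 252, 237 and 218 CPM against 7.55, 4.81 and 16.1 CPM, a log2 fold change of 4.64. Every dorsal library was above every ventral one, and all 3 genes kept a ventral level of at least 2 CPM.

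Lower but as separated were 3 further factors. Olig3, a bHLH factor of thalamic progenitors, was at 17.2, 17.7 and 12.1 CPM in dorsal and 0.937, 0.757 and 0.723 CPM in ventral libraries. Gata3, a zinc finger factor of inhibitory neurons, was at 22.5, 22.5 and 16.0 CPM and 0.838, 0.649 and 0.834 CPM. Shox2, a homeobox gene of dorsal thalamus, was at 54.2, 48.5 and 75.0 CPM and 2.32, 1.30 and 1.61 CPM. Their log2 fold changes were 4.27, 4.70 and 5.08, and the ventral values of Olig3 and Gata3 were under 1 CPM in each library. Pax6, a paired box factor of forebrain progenitors, had a log2 fold change of 4.22 with 87.2, 84.5 and 98.2 CPM against 5.47, 4.81 and 4.12 CPM.

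The genes named for the largest dorsal fold also included some that are not regional factors. Slc30a10, a manganese transporter, stood at 62.5, 54.9 and 62.9 CPM in dorsal and 0.937, 3.35 and 0.834 CPM in ventral libraries, a log2 fold change of 5.14. Hbb-y, an embryonic globin of red blood cells, stood at 52.4, 23.3 and 18.6 CPM and 1.78, 1.19 and 0.723 CPM, a log2 fold change of 4.66. All 6 tested red blood cell genes had a dorsal direction, and Hbb-y was the 1 that passed.

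Not every factor of the dorsal lists was dorsal. Sox14, a gene of inhibitory neurons of several diencephalic nuclei, stood at 13.01, 13.3 and 11.7 CPM in dorsal and 184, 175 and 167 CPM in ventral libraries, a log2 fold change of -3.79. Prox1, a homeobox factor, and Dbx1, a progenitor homeobox factor, were higher in ventral by 1.78 and 1.51 on the log2 scale. The thalamic list had 4 such members, and their number was 4 in each fit that left out a library.

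**Figure D2:**
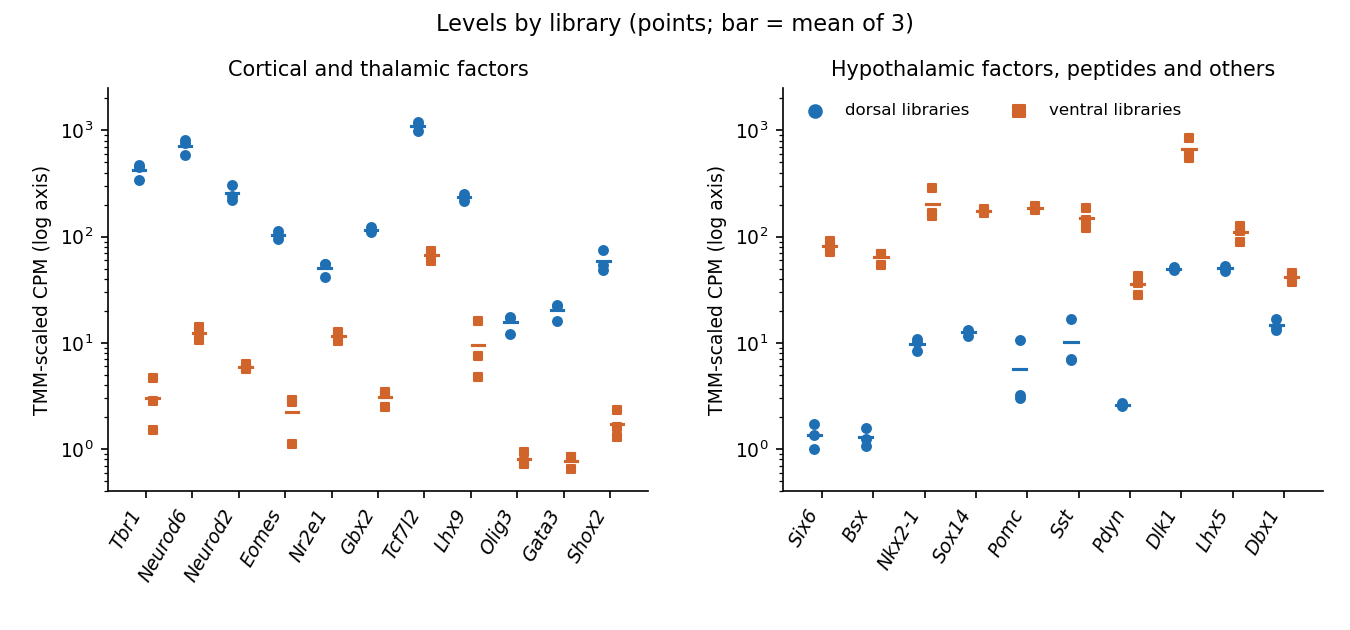
TMM-scaled CPM (log axis) of regional factors and peptides by library, with 3 dorsal libraries as blue points and 3 ventral libraries as orange squares, and a bar at each mean. Dorsal points lie above ventral ones for every gene on the left, and ventral points lie above dorsal ones for every gene on the right.

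In ventral diencephalon, hypothalamic factors and neuropeptides were higher. Six6, a homeobox factor of the hypothalamus and eye, stood at 1.74, 1.01 and 1.36 CPM in dorsal and 81.8, 71.4 and 92.1 CPM in ventral libraries (log2 fold change -5.89, SE 0.28, adjusted p = 4.69e-05). Bsx, a homeobox factor of arcuate neurons, stood at 1.08, 1.25 and 1.59 CPM and 53.9, 68.5 and 68.9 CPM, a log2 fold change of -5.61. Nkx2-1, the homeobox factor that specifies the ventral hypothalamus, was at 10.8, 10.3 and 8.38 CPM and 167, 158 and 289 CPM, a log2 fold change of -4.38. The regions did not overlap for these 3, and ventral library 3 was the highest library for each. The hypothalamic list counted 11 ventral calls without dorsal 1 and 11 without dorsal 2, against 17 with all libraries.

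Pomc, the precursor of melanocortin and opioid peptides, stood at 3.24, 3.03 and 10.6 CPM in dorsal and 195, 179 and 189.9 CPM in ventral libraries, a log2 fold change of -5.07. Dorsal library 3 was the highest dorsal library for it. Sst, which encodes somatostatin, was at 6.999, 6.92 and 16.9 CPM and 143, 120.0 and 185 CPM, a log2 fold change of -3.87. Pdyn, the precursor of dynorphins, was at 2.58, 2.55 and 2.72 CPM and 36.9, 27.96 and 42.8 CPM, a log2 fold change of -3.77. In the list of transmitter synthesis, transport and peptide genes, 9 of 22 tested were higher in ventral and 2 in dorsal. The ventral count was 5 when dorsal 1, dorsal 2 or ventral 1 was left out.

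The largest ventral differences were of another kind. The 10 genes named for the largest ventral fold were Defa24, Reg3b, Prap1, Reg3g, Igkc, Prss2, Reg1, Lyz1, Fabp2 and Defa17, which encode intestinal and pancreatic proteins or an antibody chain. Reg3b, an antimicrobial lectin of the intestine, stood at 2.68, 3.22 and 2.61 CPM in dorsal and 1589, 2902 and 772 CPM in ventral libraries, a log2 fold change of -9.27. Igkc, the constant region of the kappa light chain, was at 0.611, 0.816 and 0.85 CPM and 384, 691 and 214 CPM, a log2 fold change of -9.14. Prss2, a pancreatic trypsinogen, was at 0.892, 0.912 and 0.85 CPM and 444, 831 and 186 CPM. Each of the 3 had its highest ventral value in library 2 and its lowest in library 3.

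These transcripts passed the rule because dorsal libraries also held them above 0.5 CPM. Of the intestine list 11 of 56 genes were in the set and 10 were higher in ventral, of the pancreas list 6 and 5, and of the plasma cell list 3 and 2. Together these list members summed to between 43.8 and 63.6 CPM in dorsal libraries and to 7352, 13291 and 3653 CPM in ventral libraries 1 to 3. Without them the ventral count was 753 of 770, and 15 of the 49 ventral differences of more than 16-fold were theirs. The lists need not hold all transcripts of these organs. Of the 15 ventral calls of more than 8 on the log2 scale 9 were on them, and of the 21 of more than 6, 11 were. The source of the other large ventral calls was not tested. The endothelial list had 1 tested gene in the set and the macrophage list 2, whose summed levels stayed under 5 CPM in each library. Over all genes of the macrophage list, most of which were outside the set, the sums were 5.17, 7.06 and 12.6 CPM in dorsal and 39.8, 70.2 and 14.6 CPM in ventral libraries, in the order of the organ genes. Those of the endothelial list ran from 9.96 to 23.5 CPM over the 6 libraries.

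The order of ventral libraries 2, 1 and 3 seen in the organ genes was counted in the other genes. It was taken as present where library 2 was above library 1, library 1 was above library 3, and library 2 was at least 2 times library 3. Of the organ genes called ventral 16 of 17 showed it, against 70 of the other 753 ventral calls (9.30%) and 820 of all 12657 tested genes (6.48%). Among the 88 other ventral calls of more than 8-fold, 32 (36.4%) showed it. B2m, the light chain of class I antigen presentation, was one, at 10.8, 12.8 and 9.91 CPM in dorsal and 370.3, 629 and 199 CPM in ventral libraries. Gsta4, a glutathione transferase, at 4.37, 4.03 and 8.10 CPM and 62.2, 114 and 26.5 CPM, and Epcam, an epithelial adhesion protein, at 1.13, 0.816 and 2.72 CPM and 36.1, 58.5 and 23.1 CPM, showed it too. The part of the organ transcripts in these 3 results was not tested.

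**Figure D3:**
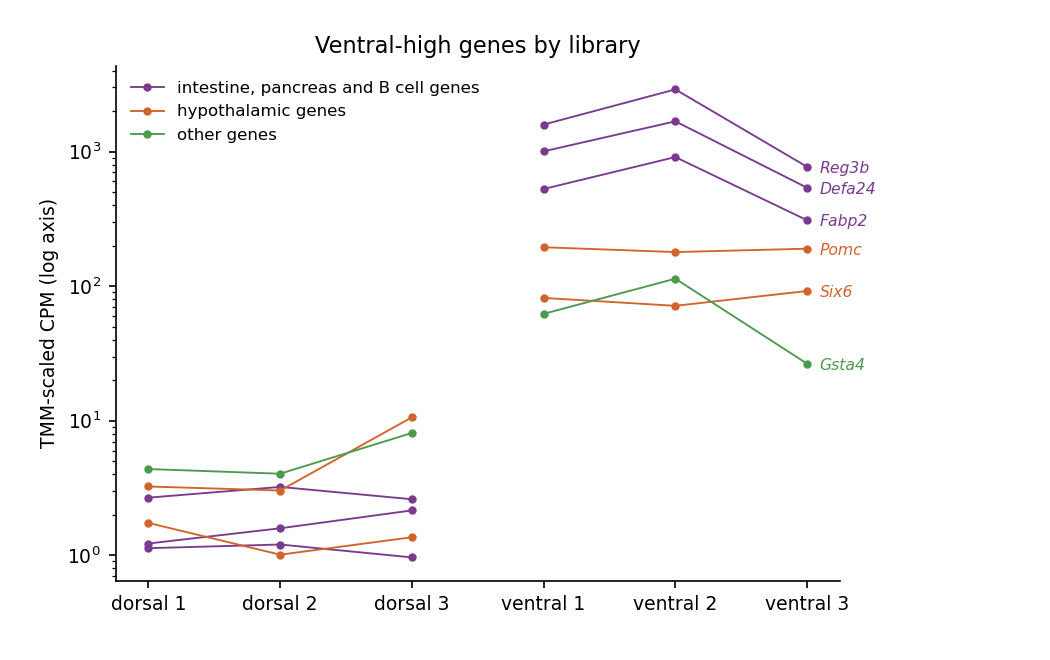
TMM-scaled CPM (log axis) of 6 ventral-high genes in each of the 6 libraries, with lines that only join the libraries of 1 gene within a region. Reg3b, Defa24, Fabp2 and Gsta4 are highest in ventral library 2 and lowest in ventral library 3, while Pomc and Six6 are not.

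Among the gene lists, that of mitosis had the highest share of dorsal calls. Of 75 tested mitosis, kinetochore and spindle genes, 61 were higher in dorsal, with a median log2 fold change of 1.81 over the list against 0.03 over all tested genes of the set. Knl1, a scaffold of the outer kinetochore, stood at 42.3, 32.9 and 30.0 CPM in dorsal and 3.06, 5.41 and 3.17 CPM in ventral libraries (log2 fold change 3.18, SE 0.32, adjusted p = 0.000618). Gtse1, a microtubule-bound protein of mitosis, was at 21.3, 20.1 and 14.1 CPM and 2.52, 3.68 and 0.668 CPM, a log2 fold change of 3.01. Sgo2a, a shugoshin that protects cohesin, was at 24.1, 18.3 and 19.1 CPM and 1.63, 4.87 and 1.34 CPM, a log2 fold change of 2.97. Foxm1, the forkhead factor that drives mitotic genes, was at 56.1, 52.1 and 28.5 CPM and 7.003, 8.98 and 1.45 CPM. The regions did not overlap for these 4. The mitosis count stayed between 47 and 68 when each library was left out. Bub3, a checkpoint protein that also takes part in splicing, was the one list member higher in ventral, by 0.97 on the log2 scale.

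DNA replication genes moved less far and in the same direction. Of 62 tested, 33 were higher in dorsal, with a list median of 0.97. Pole, the catalytic subunit of the leading-strand polymerase, stood at 27.2, 30.9 and 14.6 CPM in dorsal and 3.16, 3.79 and 0.89 CPM in ventral libraries, a log2 fold change of 3.21. Tk1, thymidine kinase, was at 27.6, 27.2 and 44.2 CPM and 6.21, 4.97 and 6.45 CPM, a log2 fold change of 2.49. Rrm2, a subunit of ribonucleotide reductase, was at 288, 271 and 171 CPM and 44.5, 55.8 and 30.7 CPM, a log2 fold change of 2.48. Each dorsal library exceeded each ventral one for all 3. This list's count was 18 without dorsal 1, 18 without dorsal 2, 16 without ventral 1 and 19 without ventral 2.

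**Figure D4:**
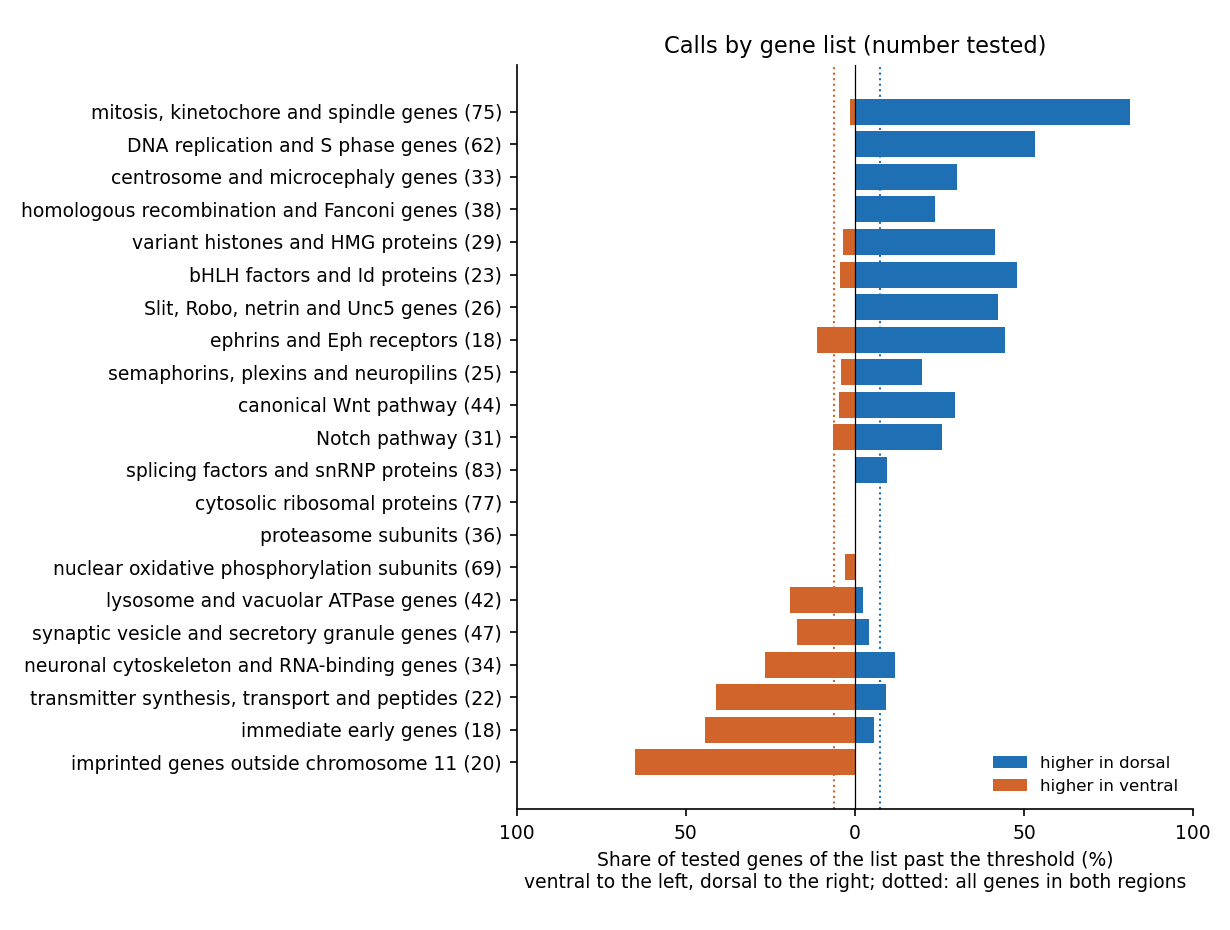
Share of the tested genes of 21 lists (%) that passed as higher in dorsal (blue, to the right) and in ventral (orange, to the left), with the number tested in brackets and dotted lines at the shares over all tested genes of the set (7.56% and 6.08%). Mitosis and DNA replication genes have the longest blue bars, and imprinted and immediate early genes the longest orange ones.

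Promoters of the division genes were searched for the letters that such genes are known to share. The CHR (cell cycle genes homology region) was searched as TTTGAA and the CCAAT box as CCAAT, both on either strand, in windows of 300 bases around RefSeq start sites on GRCm38.p6. Of the 61 dorsal mitosis genes 49 had an entry, with 53 promoters. The CHR letters were in 35 of these (66.0%), against 5 of 14 promoters (35.7%) of the list members that did not pass, 11.9% over all tested genes of the set and 17.9% of all 32851 promoters. CCAAT was in 71.7% of the dorsal mitosis promoters, 71.4% of those that did not pass, 38% over the set and 37.4% of all promoters. The promoters of Bub3, which was higher in ventral, also held both. The window before the start site of Kif15, a motor protein of the mitotic spindle, is shown with the CHR letters in capitals. Among list members with a match there and a RefSeq start within 100 bases of the GENCODE one, Kif11 had a dorsal fold change of 2.86 on the log2 scale. That of Kif15 was 2.37, and the Kif15 call held without any 1 library.
Kif15, chr9:122950831-122951080, plus strand: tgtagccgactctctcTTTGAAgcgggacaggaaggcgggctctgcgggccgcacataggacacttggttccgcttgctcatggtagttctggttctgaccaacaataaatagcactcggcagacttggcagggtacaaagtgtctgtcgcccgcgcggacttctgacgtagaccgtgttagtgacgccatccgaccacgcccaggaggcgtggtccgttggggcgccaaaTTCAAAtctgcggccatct
Its window held 2 matches. A match describes the letters and is not a measured binding site.

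For replication genes the E2F letters TTTGGCGC, TTTCCCGC, TTTGCCGC and TTTCGCGC were searched on both strands. They were in 11 of 36 promoters (30.6%) of the dorsal replication genes and in 7 of 26 (26.9%) of the list members that did not pass. Over the set 3.93% of promoters held one of them, and 2.27% of all promoters did. These letters thus occurred in both portions of the replication list. The window of Mcm5, a subunit of the replicative helicase and the dorsal list member with the largest fold change (1.58) among those with such a match and start, is shown with the E2F letters in capitals.
Mcm5, chr8:75109259-75109508, plus strand: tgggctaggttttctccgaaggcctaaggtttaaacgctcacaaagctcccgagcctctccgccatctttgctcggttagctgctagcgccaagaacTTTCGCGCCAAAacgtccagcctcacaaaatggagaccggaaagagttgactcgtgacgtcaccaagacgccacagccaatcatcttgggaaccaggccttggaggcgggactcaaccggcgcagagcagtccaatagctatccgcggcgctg
The first of its 2 matches, which overlap, began 153 bases before the start.

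Centrosome, recombination and chromatin genes were dorsal to a smaller extent. Of 33 tested centrosome and microcephaly genes, 10 were higher in dorsal, among them Akna, a microtubule organiser of delaminating progenitors, at 103, 104 and 80.7 CPM in dorsal and 17.7, 23.1 and 16.2 CPM in ventral libraries. Their count was 4 without dorsal 1, 6 without dorsal 2 and 4 without ventral 1. Of 38 tested homologous recombination and Fanconi genes, 9 were higher in dorsal, and the number was 5 without each of dorsal libraries 1 and 2 and ventral libraries 1 and 2, and 19 without ventral 3. Brca1, which acts in recombination, stood at 23.6, 29.8 and 16.0 CPM against 1.97, 3.79 and 1.39 CPM, a log2 fold change of 3.28. Its dorsal libraries all lay above the ventral ones.

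Of 29 tested variant histones and high mobility group (HMG) proteins, 12 were higher in dorsal and 1 in ventral. The dorsal count was 7 without dorsal 1, 8 without ventral 1 and 6 without ventral 2. Hmgb2, an HMG protein of dividing cells, stood at 389.6, 349 and 668 CPM in dorsal and 114, 137 and 140.2 CPM in ventral libraries, a log2 fold change of 1.85. Cenpa, the centromeric histone, was at 79.5, 74.4 and 96.98 CPM and 19.4, 21.5 and 33.8 CPM. Hmgb1 and Hmgn2 were among the 5 dorsal calls with the highest mean CPM, a level that is not per length, with 1551, 1594 and 1841 CPM against 885, 862 and 914 CPM for Hmgn2. The difference of Hmgn2 was small, at 0.91 on the log2 scale, but its 3 dorsal libraries lay above the 3 ventral ones. Bcl7a, a subunit of the BAF remodelling complex, was higher in dorsal by 1.87, and Chd3, a NuRD helicase, by 1.33 on the log2 scale.

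Progenitor genes included 8 dorsal calls among 24 tested and 1 ventral call. Nes, the intermediate filament of neural progenitors, stood at 47.9, 58.4 and 86.9 CPM in dorsal and 22.7, 9.57 and 20.6 CPM in ventral libraries, a log2 fold change of 1.87. Sox21, an HMG-box factor of progenitors, was the ventral one, at 38.5, 34.8 and 39.4 CPM and 67.2, 74.4 and 95.5 CPM, a log2 fold change of -1.07. The dorsal count was 5 without ventral 1, and the ventral count 3 without dorsal 3. Of the Sox family 3 were higher in dorsal and 4 in ventral among 13 tested; the dorsal number was 1 without dorsal 1 and 6 without ventral 3, and the ventral number 2 without dorsal 1 and without dorsal 2. Sox11, a factor of young neurons, was dorsal, at 2390.2, 1932 and 2366 CPM against 864, 780.5 and 1107 CPM. Of the bHLH factors and Id proteins 11 of 23 were higher in dorsal, a count of 10 to 12 without any 1 library. Id3, which binds and inhibits bHLH factors, was the ventral exception, at 8.55, 9.61 and 18.1 CPM and 36.1, 43.9 and 41.9 CPM.

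The calls of ribosomal and proteasome genes depended on dorsal library 3. With all libraries none of 77 tested cytosolic ribosomal protein genes and none of 36 tested proteasome subunits passed by edgeR's quasi-likelihood test, and none did by DESeq2 or limma-voom. Without dorsal library 3, 44 of the ribosomal genes and 5 of the proteasome genes passed as higher in ventral, and without ventral library 3 there was 1 proteasome gene. The ribosomal genes summed to 29163 CPM in dorsal library 3, against 13490.4 and 14088 CPM in dorsal libraries 1 and 2 and 18498 to 19619.6 CPM in ventral libraries. At an unadjusted p under 0.05 there were 2 ribosomal genes and 0 proteasome genes. The ribosomal fold changes ran from -0.77 to 0.53 on the log2 scale and the proteasome ones from -0.36 to 0.26. Of 50 translation initiation factors 2 (4%) were higher in dorsal, or none when any 1 library of the close pairs was left out. Of 83 splicing factors and snRNP proteins 8 (9.64%) were higher in dorsal, near the 7.56% over the set. The splicing count was 1 when dorsal 1, dorsal 2 or ventral 2 was left out, none when ventral 1 was, and 13 when dorsal 3 was. Vars, the valyl-tRNA synthetase, was the one call among 20 synthetase genes (5%), with a log2 fold change of 0.97.

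Calls of respiratory genes depended on dorsal library 3 as well. Of 69 tested nuclear subunits of oxidative phosphorylation, 60 had a ventral direction and 2 passed as higher in ventral, with a list median of -0.30. Without dorsal library 3, 49 of them passed. Without ventral library 3, 5 passed, and without any one of the other 4 libraries none did. The 79 mitochondrial ribosomal protein genes behaved alike in that 1 passed with all libraries and 24 without dorsal 3. All 13 mitochondrially encoded genes had a ventral direction, with a median of -0.97, and 5 passed, a number that was 11 without ventral 3 and 1 without any other single library. mt-Nd3, a subunit of complex I, stood at 40.9, 33.6 and 71.3 CPM in dorsal and 278, 279 and 137 CPM in ventral libraries. It had the order of the organ genes, and the 13 genes' share of counts ran from 1.14% to 1.58% in dorsal libraries and was 2.76%, 3.74% and 1.73% in ventral libraries 1 to 3. The part of the organ transcripts in the mitochondrial result was not tested.

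Among the lists of signalling pathways that of Wnt had the largest number of dorsal calls, and that of insulin-like growth factors the highest share, 37.5% against 29.55%. Of 44 tested canonical Wnt genes 13 passed as dorsal and 2 as ventral, with a median of 0.56. The dorsal count was 8 without ventral 1 and 22 without ventral 3, and the ventral count was 1 without each of dorsal libraries 1 and 2 and ventral libraries 1 and 2 and 4 without ventral 3. Rspo3, a secreted enhancer of Wnt signals, stood at 62.5, 59.1 and 61.4 CPM in dorsal and 1.73, 3.08 and 4.06 CPM in ventral libraries, a log2 fold change of 4.37. Lrp4, a receptor that binds Wnt inhibitors, was at 10.6, 7.16 and 13.7 CPM and 0.592, 0.919 and 0.834 CPM. Lgr4, a receptor of R-spondins, was higher on the other side, at 5.97, 5.91 and 5.55 CPM and 22.2, 19.4 and 18.7 CPM, a log2 fold change of -1.79. The ligand and this receptor were thus higher in opposite regions. Dkk1, the other ventral call, was at 1.55, 1.68 and 3.12 CPM in dorsal and 9.57, 19.4 and 6.29 CPM in ventral libraries. It had the order of the organ genes, which Lgr4 did not have. The part of the organ transcripts in the Dkk1 call was not tested. Axin2, a target and inhibitor of the pathway, stood at 12.1, 8.55 and 18.8 CPM against 2.71, 2.22 and 4.39 CPM, a log2 fold change of 2.08 with an adjusted p of 0.0175. Its call was lost when dorsal 1, ventral 1 or ventral 2 was left out.

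The hedgehog list had 4 dorsal calls (26.7%) and 1 ventral call (6.67%) among 15 tested, against 7.56% and 6.08% over the set. The ventral share was thus near that of the set. The dorsal number was 3 without any 1 library of the close pairs, and 6 without dorsal 3 or without ventral 3. The ventral number was 0 without any 1 library of the close pairs and 2 without ventral 3. Cdon, a co-receptor of hedgehog ligands, stood at 25.2, 23.4 and 31.5 CPM in dorsal and 1.43, 1.30 and 1.61 CPM in ventral libraries, a log2 fold change of 4.199. Boc, the related co-receptor, was at 45.0, 43.7 and 21.4 CPM and 1.78, 2.43 and 3.004 CPM, a log2 fold change of 3.93. Gli3, the factor that represses targets in the absence of ligand, was at 41.99, 40.0 and 28.9 CPM and 3.21, 3.35 and 9.85 CPM. These 3 were separated in every library.

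Notch genes had 8 dorsal calls and 2 ventral ones among 31 tested, and 17 had a dorsal and 14 a ventral direction. The dorsal number was 4 without dorsal 1, 5 without each of dorsal library 2 and ventral libraries 1 and 2, and 14 without ventral 3. Notch1, the receptor, stood at 51.2, 50.3 and 39.9 CPM in dorsal and 12.97, 9.95 and 17.7 CPM in ventral libraries, a log2 fold change of 1.80. Hey1, a target of the pathway, was at 43.6, 45.5 and 27.3 CPM and 9.52, 8.81 and 7.06 CPM. The ventral calls were Dlk1, given below with the imprinted genes, and Dner, a Notch ligand of neurons, at 261, 274 and 175 CPM and 429, 417 and 426 CPM, whose call was lost without dorsal 1, ventral 1 or ventral 2. Of 20 fibroblast growth factor genes 5 were dorsal, with Fgf15 at 29.6, 32.5 and 22.3 CPM and 7.05, 11.03 and 7.95 CPM, and Ets2, a factor downstream of ERK, was the ventral one. The insulin-like growth factor list had 6 dorsal and 3 ventral calls among 16 tested. Of the ventral calls Igfbp7, at 1.03, 0.528 and 1.08 CPM in dorsal and 10.6, 18.8 and 3.78 CPM in ventral libraries, had the order of the organ genes. Igfbp5 and Irs4 did not have it. The part of the organ transcripts in the Igfbp7 call was not tested. Igfbp2, a binding protein, was at 293, 304 and 439.9 CPM against 102, 93.1 and 105 CPM, while Irs4, a receptor substrate, was at 1.46, 3.07 and 1.36 CPM against 28.6, 24.9 and 9.57 CPM. The growth factor number was 3 without each of dorsal libraries 1 and 2 and ventral libraries 1 and 2, and the insulin-like list had 3 dorsal calls without ventral 1 and without ventral 2.

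Of 11 tested genes of the retinoic acid pathway 2 passed as dorsal and 1 as ventral. Crabp1, a cytosolic carrier of retinoic acid, stood at 11.51, 14.0 and 21.7 CPM in dorsal and 1.08, 1.41 and 1.45 CPM in ventral libraries, a log2 fold change of 3.58. Crabp2 was at 64.3, 70.1 and 101 CPM and 32.5, 26.7 and 32.8 CPM, a log2 fold change of 1.36. Rxrg, a retinoid X receptor, was ventral at 2.63, 2.88 and 1.76 CPM and 11.54, 12.9 and 8.07 CPM. The other 8 did not pass. Among nuclear receptors Nr2e1, a receptor of forebrain progenitors, and Nr4a2 were higher in dorsal by 2.12 and 2.40 on the log2 scale. Esr1, the estrogen receptor alpha, was higher in ventral at 0.939, 1.49 and 1.08 CPM against 10.9, 8.54 and 7.12 CPM, and Nr3c1, the glucocorticoid receptor, at 3.10, 3.46 and 4.76 CPM against 12.7, 14.4 and 14.4 CPM.

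The axon guidance genes that passed were mostly dorsal. Of 26 tested Slit, Robo, netrin and Unc5 genes and their partners, 11 were higher in dorsal, with a list median of 1.14. The number was 7 without dorsal 1. Ntng2, a membrane-bound netrin, stood at 11.7, 10.7 and 10.48 CPM in dorsal and 0.888, 1.14 and 2.11 CPM in ventral libraries, a log2 fold change of 2.99. Of 25 tested semaphorins, plexins and neuropilins 5 were dorsal, or 8 without ventral 3, and 1 was ventral. Plxna2, a semaphorin receptor, was at 334, 333 and 208 CPM and 22.04, 20.98 and 20.7 CPM. Plxna4 was at 248, 245 and 194 CPM and 21.3, 23.6 and 21.5 CPM, and their log2 fold changes were 3.78 and 3.37. For both receptors the dorsal libraries all lay above the ventral ones.

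Ephrins split between the regions. Of 18 tested ephrins and Eph receptors 8 were higher in dorsal and 2 in ventral, numbers of 4 and 1 without each of dorsal libraries 1 and 2 and ventral libraries 1 and 2. Efnb2, a transmembrane ephrin, stood at 224, 226 and 139 CPM in dorsal and 17.5, 18.2 and 28.4 CPM in ventral libraries, a log2 fold change of 3.20. Epha5, a receptor of A-type ephrins, was at 304, 269 and 292 CPM and 47.6, 41.0 and 54.4 CPM, a log2 fold change of 2.60. Efna5, an A-type ephrin, was ventral at 19.4, 17.3 and 16.3 CPM and 92.8, 92.0 and 83.0 CPM, a log2 fold change of -2.33. The ligand Efna5 and the receptor Epha5 were thus higher in opposite regions. Cntn2, an adhesion molecule of early axons, was dorsal at 393, 484 and 207 CPM and 32.0, 27.7 and 28.8 CPM, and Lsamp, a neuronal adhesion molecule, was ventral at 21.4, 19.5 and 23.5 CPM and 73.0, 76.4 and 87.8 CPM.

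Neuronal genes passed in both directions. Of 34 tested neuronal cytoskeleton and RNA-binding genes 9 passed as ventral and 4 as dorsal. The ventral number was 2 when dorsal 1, dorsal 2 or ventral 1 was left out, and 3 when ventral 2 was. The dorsal number was 0 without each of dorsal libraries 1 and 2 and ventral library 2, and 2 without ventral 1. Tubb2a, a neuronal beta tubulin, stood at 655, 703 and 691 CPM in dorsal and 1475, 1399 and 1549.9 CPM in ventral libraries, a log2 fold change of -1.11. Dcx, a microtubule-binding protein of young neurons, was one of the dorsal calls, at 748, 715 and 493 CPM and 389, 313 and 316 CPM, a log2 fold change of 0.94. Of 47 synaptic vesicle and secretory granule genes 8 passed as ventral and 2 as dorsal. The ventral number was 3 without dorsal 1, 4 without dorsal 2 and 5 without ventral 1 or ventral library 2. Scg2, a granin of secretory granules, was at 18.9, 22.2 and 21.9 CPM and 116, 117 and 106 CPM, a log2 fold change of -2.43. Syt1, a calcium sensor of vesicle release, was at 108, 103 and 48.1 CPM and 301, 284 and 268 CPM, whereas Syt7, another synaptotagmin, was dorsal at 30.6, 25.4 and 42.3 CPM and 10.1, 9.08 and 8.96 CPM.

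Among transmitter receptors 7 of 47 (14.9%) were ventral and 5 (10.6%) dorsal, against 6.08% and 7.56% over the set. Gabra5, a subunit of the GABA-A receptor, stood at 4.27, 4.18 and 3.91 CPM in dorsal and 42.8, 52.3 and 51.7 CPM in ventral libraries, a log2 fold change of -3.57. Htr1b, a serotonin receptor, was at 1.64, 1.34 and 1.25 CPM and 9.62, 12.4 and 18.2 CPM. Grik2, a kainate receptor subunit, was dorsal at 99.2, 94.7 and 63.7 CPM and 35.1, 37.1 and 30.2 CPM. The dorsal number was 2 when dorsal 1, dorsal 2 or ventral 2 was left out and 3 when dorsal 3 or ventral 1 was, and the ventral number was 4 when dorsal 2 or ventral 1 was. Voltage-gated channel subunits had 4 calls each way among 55 tested. The share was 7.27% each way, near the 7.56% dorsal and 6.08% ventral of the set. The counts were 9 dorsal and 7 ventral without ventral 3, and as few as 2 each way without a library of the close pairs. The calls included Scn9a, a sodium channel, at 4.84, 7.92 and 10.54 CPM and 37.0, 30.8 and 41.9 CPM. Kcnh3, a potassium channel, was at 12.4, 13.1 and 6.68 CPM and 1.97, 0.865 and 1.67 CPM. The highest Kcnh3 value in ventral libraries was below its lowest in dorsal ones.

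Imprinted genes, which are expressed from one parental allele, were listed from outside chromosome 11 only. Of these, 18 of 20 tested had a ventral direction, and 13 passed, with a list median of -1.53. Their count stayed between 12 and 14 when each library was left out. Dlk1, a Notch-related membrane protein, stood at 50.1, 51.3 and 48.3 CPM in dorsal and 611, 546 and 852 CPM in ventral libraries (log2 fold change -3.75, SE 0.21, adjusted p = 6.77e-05). Asb4, a ubiquitin ligase adaptor of hypothalamic neurons, was at 11.4, 11.9 and 12.4 CPM and 125, 125 and 162 CPM, a log2 fold change of -3.53. Zim1, a zinc finger gene, was at 2.35, 1.78 and 2.66 CPM and 32.5, 21.6 and 38.3 CPM, a log2 fold change of -3.77. Nnat, a neuronal membrane protein, had the highest mean CPM of the ventral calls, at 4155, 4625 and 5592 CPM and 9125, 11201 and 9540.4 CPM. Its log2 fold change was -1.06, and the regions did not overlap.

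Immediate early genes, which are induced within minutes of a stimulus, were higher in ventral for 8 of 18 tested and in dorsal for 1, with a median of -1.08. Leaving out each library gave 6 to 9 ventral calls. Npas4, a factor induced by neuronal activity, stood at 1.97, 2.59 and 2.15 CPM in dorsal and 19.3, 17.9 and 20.1 CPM in ventral libraries, a log2 fold change of -3.09. Arc, a synaptic regulator, was at 4.46, 2.59 and 2.95 CPM and 25.7, 27.5 and 14.96 CPM, a log2 fold change of -2.77. Ier5 was the dorsal exception, at 124, 119.7 and 128 CPM and 47.6, 49.3 and 68.1 CPM. The ventral libraries lay above the dorsal ones for Npas4 and Arc and below them for Ier5.

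Metabolic and stress genes had scattered calls. Of 42 tested lysosome and vacuolar ATPase genes 8 passed as ventral and 1 as dorsal, with a ventral number of 4 without dorsal 1 and without dorsal 2, 5 without ventral 1, 3 without ventral 2 and 12 without dorsal 3. Shmt1, a one-carbon enzyme, was dorsal at 20.1, 21.8 and 21.02 CPM and 5.03, 7.46 and 4.51 CPM, and Cad, the first enzyme of pyrimidine synthesis, was dorsal at 55.1, 59.3 and 37.9 CPM and 16.7, 13.9 and 9.79 CPM. Aldoc, a brain aldolase, had the largest dorsal difference of the glycolysis list, at 46.2, 45.4 and 36.4 CPM and 5.67, 5.79 and 5.01 CPM. Arntl, a core clock factor, was the 1 call among 17 clock genes, with a log2 fold change of -1.53. This ventral share of 5.88% was near the 6.08% over the set.

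Of 24 tested genes of the integrated stress response and its factor ATF4, 3 (12.5%) were higher in ventral and 2 (8.33%) in dorsal. Over the set the shares were 6.08% and 7.56%. The ventral and dorsal numbers were 1 and 1 without ventral 1. Asns, the asparagine synthetase, stood at 35.7, 36.8 and 36.5 CPM in dorsal and 87.3, 93.7 and 74.9 CPM in ventral libraries, a log2 fold change of -1.23. Chac1, which degrades glutathione, was at 2.91, 3.94 and 1.64 CPM and 12.2, 10.3 and 7.73 CPM, and its call was lost without dorsal 1, dorsal library 2, ventral library 1 or ventral library 2. Their 2 promoters held the letters TGATGNAA, searched on both strands as the ATF4 element, as did 3 of 18 promoters (16.7%) of the list members that did not pass, none of 2 of the dorsal calls, 2.26% over the set and 3.97% of all promoters. The window of Asns is shown with these letters in capitals because its call held without any 1 library.
Asns, chr6:7693210-7693459, minus strand: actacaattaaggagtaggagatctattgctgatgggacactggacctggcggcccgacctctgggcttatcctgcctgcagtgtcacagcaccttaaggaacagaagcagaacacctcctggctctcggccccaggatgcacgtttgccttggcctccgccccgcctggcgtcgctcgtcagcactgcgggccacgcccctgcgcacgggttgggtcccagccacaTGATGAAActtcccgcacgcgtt
The match began 23 bases before the RefSeq start.

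Of 312 tested numbered zinc finger genes 10 passed as dorsal and 6 as ventral, with a median of -0.00084, so this large family had a lower share of calls in each direction than the set. The dorsal number was 5 without dorsal 1 and ventral library 2 in turn, 6 without dorsal 2 and without ventral 1, 24 without dorsal 3 and 16 without ventral 3. The ventral number was 2 or 3 without each of dorsal libraries 1 and 2 and ventral libraries 1 and 2, and 17 without ventral 3. Zfp423, a zinc finger factor of brain development, was dorsal by 2.16, and Zfp941 was ventral by 2.44 on the log2 scale. 

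The calls varied with gene length. When the tested genes with an exonic length were ordered by it and cut into 5 groups of 2526, the median log2 fold change was -0.16, -0.06, 0.01, 0.14 and 0.29 from the shortest to the longest. The share called dorsal rose from 3.76% to 12.9% over these groups and the share called ventral went from 10.1% to 3.44%. The median exonic length weighted by counts was 4498, 4450 and 4043 bases in dorsal libraries 1 to 3 and 3976, 3930 and 4048 bases in ventral ones. Dorsal library 3 was thus within the ventral range. The part of length in the results above was not tested.

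**Figure D5:**
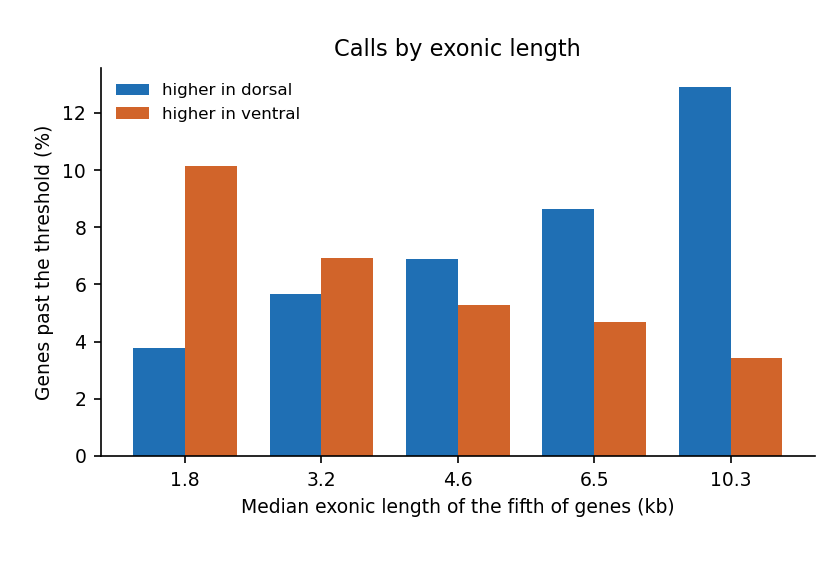
Share of tested genes (%) that passed as higher in dorsal (blue) and ventral (orange), by the median exonic length in kb of 5 equal groups of genes. The blue bars rise from 3.76% to 12.9% and the orange bars go from 10.1% to 3.44%.

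The same genes were read in the 12 wild-type medial cortex libraries of E11.5, which were made by another method and are given in transcripts per 1000000 (TPM), a level per length. The median of the mean TPM was 15.6 for 956 dorsal calls with an entry, 5.96 for 769 ventral calls and 13.2 for 10901 genes that did not pass. A mean of at least 1 TPM was reached by 94.9% of the dorsal calls, 76.3% of the ventral calls and 86.7% of the others. Of calls of more than 8-fold, 91.8% of the dorsal and 38.5% of the ventral ones reached it. These 104 ventral calls included 16 on the organ lists, and 32 of the other 88 had the library order of the organ genes. The part of the organ transcripts in the ventral share was not tested. Neurod6 had a mean of 95.6 TPM (median 39.99) and Tcf7l2 of 33.8 TPM (median 27.75) in the cortex libraries. Gbx2 had a mean of 1.59 TPM and Gata3 of 0.308 TPM. Both had a median of 0, and each reached 1 TPM in only 1 of the 12 libraries. Nkx2-1 and Six6 were listed at 0. The dorsal list of the diencephalon thus held genes with a high and a low level in cortex.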

How the data were processed

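Total RNA of dorsal and ventral diencephalon was sequenced in bulk, with 3 libraries per region. The tools named, per the submitters' processing notes, were Trimmomatic, featureCounts and STAR 2.7.0a, and the builds GRCm38 and mm10, with no role or order. The bulk values the authors deposited are named as TPM, but they do not sum to 1000000, 46.6% of those above 0 are whole within 0.0001, and they were treated as estimated counts. The medial cortex values the authors deposited are TPM, which keeps no depth, and were only described.

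Estimated counts were rounded and tested with edgeR 4.0.16 in R 4.3.3 (TMM scaling, quasi-likelihood test, Benjamini-Hochberg adjustment over the 14701 genes whose mean reached 1 CPM, threshold 0.05). Any test planned for TPM was replaced by this count test. All levels named CPM in the text are TMM-scaled, except those of the 0.5 CPM rule. At these totals of at least 17604166, counting error is small for genes with high counts but not for values near 0.5 CPM. Large fold changes over such low values are therefore less exact. The 3 libraries a region also limit the precision. Regions come from the sample titles. The test script was checked on simulated counts.

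Symbols and positions come from GENCODE M21 (GRCm38), which named 34651 of 34865 identifiers, and promoters from RefSeq (GRCm38.p6), which matched 9727 of 12652 tested symbols. The genes and the 83 gene lists were chosen with earlier results of these data known. The naming rule took, per direction, the 10 genes with the largest fold among calls of at least 10 CPM without overlap, the 5 with the highest mean CPM, up to 3 of each list, and Axin2. The text leaves out many of these, mostly those whose call was lost without a library, and adds promoter examples and X-linked genes chosen after their values were seen. Alternatives were DESeq2 1.42.0, limma-voom (limma 3.58.1), other scalings and filters, a replicate block, other rules for the set, and each library left out.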

Additional observations from a re-analysis of the deposited data

How the results depend on the processing

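The set held 13786 genes with a minimum of 0.2 CPM, 11821 with 1 CPM and 13474 where ventral library 3 was not used in the rule, an alternative chosen after seeing the data. DESeq2 gave 1263 ventral calls, above the 770 of edgeR, and 1397 dorsal calls. Leaving out each library gave 450 to 1510 dorsal and 373 to 1151 ventral calls. The other scalings, filters and limma-voom stayed within 1.5 times, and of the 114 called genes of the report that were run under each alternative, none changed direction. Many genes whose call was lost without a library had been left out of the report, so these 114 do not measure how stable the calls are. Of 122 list counts above 0, 35 stayed within 1.5 times without any 1 library. Fits with 2 libraries in a region assume that both regions vary alike. With the replicate number as a block, 865 dorsal and 601 ventral calls were made. The deviations of same-numbered libraries correlated at 0.071, 0.097 and 0.114, and dorsal library 2 correlated best with ventral library 1 (0.150), so the number was not taken as a pairing.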

Other observations

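Ventral calls took a larger share of the genes of the X chromosome than of the other chromosomes, a difference that was not tested. Of 432 tested X-linked genes of the set 68 (15.7%) were higher in ventral and 19 in dorsal, while on the other chromosomes 702 of 12225 (5.74%) were higher in ventral. Of the 68, 16 belong to the Bex, Tceal, Mage and Gprasp families and a few neighbouring families, picked after their values were seen. Only the ventral calls were searched for these families. Their members that did not pass or were dorsal were not counted, so the 16 give no share of the families. Zcchc12, a transcriptional coactivator of neurons, stood at 74.7, 83.4 and 56.2 CPM in dorsal libraries 1 to 3 and at 429, 448 and 413 CPM in ventral libraries 1 to 3, a log2 fold change of -2.59. Maged1, a melanoma antigen family member found in neurons, stood at 1466, 1529 and 1328 CPM in dorsal and 2885, 2590.0 and 2682 CPM in ventral libraries, a log2 fold change of -0.92. The regions did not overlap for either gene. The 4 Y-linked genes measured, Ddx3y, Eif2s3y, Kdm5d and Uty, had adjusted p-values of 0.406 to 0.719 by edgeR's quasi-likelihood test, and their libraries overlapped between regions.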
